A study of Danio rerio with 6 samples.

Results

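BLOC-1 (biogenesis of lysosome-related organelles complex 1) was examined gene by gene in iridophores sorted from zebrafish larvae, against a control sorted as a general cell population. The genes were taken by symbol: bloc1s1, bloc1s2, bloc1s3, bloc1s4, bloc1s5, bloc1s6, dtnbp1a, dtnbp1b and snapin. Of these 9 symbols, 8 were measured, out of 11016 genes in the count table, and dtnbp1b was not analysed here. Iridophores are the pigment cells that carry light-reflecting purine crystals. All larvae, 5 days post fertilization and labelled wild type (WT) in genotype, carried the transgene Tg(pnp4a:PALM-mCherry), in which the pnp4a promoter drives a membrane-bound red fluorescent protein. Iridophores were enriched by that fluorescence, and both groups had 3 biological replicates of about 20000 sorted cells. The number of larvae behind each replicate, and whether fluorescent cells were kept out of the control, are not given in the labels. RNA was read by a bulk form of MARS-seq, which tags the 3′ ends of poly(A) transcripts.

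BLOC-1 is a rod-like assembly of small coiled-coil proteins on early endosomes. In mammalian melanocytes it helps to form the tubular carriers that bring cargo such as TYRP1 from endosomes to maturing melanosomes, and loss of single subunits in mouse or human gives pigment dilution and bleeding as part of Hermansky-Pudlak syndrome. The subunits encoded by bloc1s1, bloc1s2 and snapin are also part of BORC, a related complex that recruits the GTPase Arl8 to lysosomes and so couples them to kinesins. By its title the study is about such organelles and crystal formation in pigment cells, and the comparison asks how the genes of this sorting machinery stand in iridophores.

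The sort was checked first. The transcript of the reporter's own promoter gene, pnp4a, was at 2406 ± 524 CPM (counts scaled to a common, TMM-adjusted library total) in iridophores, against 15.7 ± 5.78 CPM in control libraries (mean ± SD, n = 3 each). All 7 measured genes of a list of 10 iridophore markers were called higher (edgeR adjusted p under 0.05), against 22.1% of all tested genes. Of these markers, tfec, alx4a, gpnmb, sox10 and fhl2b did not pass the filter on low counts in all 3 control libraries. They were tested through the iridophore libraries, where they are high, so the count is a description and not support. The libraries held 616439 to 1686552 counts in iridophores and 1612637 to 3282480 in the control, so that 3 counts stood for 1.69 to 5.50 CPM and for 0.897 to 1.79 CPM. In both groups the library name of replicate 1 has another ending than those of replicates 2 and 3. For named genes examined under other settings, a call that changed within replicates 2 and 3 alone is given with its value. Nothing in the labels says that replicates were separate clutches, so p-values measure the spread between these samples.

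Every BLOC-1 gene measured was higher in iridophores. The fitted differences ran from 2.79-fold for bloc1s5 to 10.12-fold for bloc1s1 among the 7 genes that passed the filter on low counts, and bloc1s6, dtnbp1a and bloc1s4 lay between them at 7.21-fold, 6.06-fold and 7.87-fold. All 7 were called higher and 0 lower (edgeR quasi-likelihood test, Benjamini-Hochberg adjusted p under 0.05), against 22.1% of the 6849 genes tested called higher and 17.8% called lower. The remaining gene, snapin, missed the filter through 1 library. Without the filter, 8 of 8 were called higher, against 16.3% of all 11016 genes. Because these are bulk samples, a larger share of cells that use a gene and more of its RNA per cell cannot be told apart.

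The filter asked for about 6.06 CPM on the plain library size in at least 3 libraries, and bloc1s1, bloc1s4 and bloc1s5 passed it through the iridophore libraries alone. For those 3 genes a difference was therefore built into the selection, and the 7 of 7 count is not support by itself. The other 4 genes, bloc1s2, bloc1s3, bloc1s6 and dtnbp1a, also passed it in all 3 control libraries. Among the 5335 tested genes that did so, 14.1% were called higher and the median log2 fold change was -0.23. The log2 fold changes of bloc1s2, bloc1s3, bloc1s6 and dtnbp1a were 1.72, 1.98, 2.85 and 2.60. Across all 7 BLOC-1 genes, including the 3 that passed through the iridophore libraries alone, the median log2 fold change was 2.60. Across all 6849 genes tested it was 0.01.

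**Figure D1:**
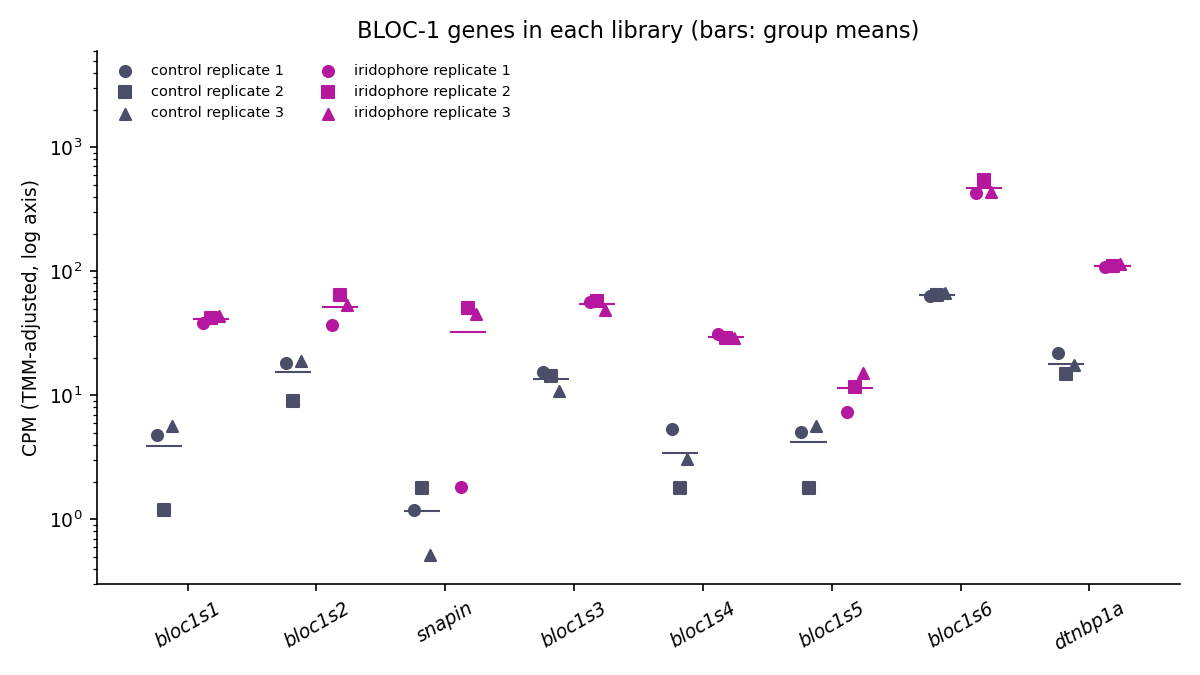
Level of each BLOC-1 gene in each library, in CPM on the TMM-adjusted library size (log axis); marker shapes are replicates, grey is control, magenta is iridophore and short bars are group means. The 3 iridophore libraries lie above the 3 control libraries for every gene, but for snapin iridophore replicate 1 (1.83 CPM, 1 count) lies next to the control.

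The subunits specific to BLOC-1 come first. The gene bloc1s6 encodes pallidin, which binds the endosomal SNARE syntaxin 13 in mammalian cells and is the gene mutated in the pallid mouse. It was at 425, 540 and 438 CPM in iridophore replicates 1, 2 and 3 and at 62.8, 64.9 and 66.7 CPM in control replicates 1, 2 and 3. The control libraries were nearly level, and the lowest iridophore library was 6.38 times the highest control library. The log2 fold change was 2.85 (standard error 0.20, edgeR adjusted p 6.72e-06), which is a fold of 7.21 with a 95% interval of 5.26 to 9.88. With 1831 counts over the 6 libraries it is the most deeply counted of the 8 genes, and its fold change is the one with the smallest standard error.

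Dysbindin, the product of dtnbp1a, forms part of the same complex, and its loss gives the sandy mouse and a form of Hermansky-Pudlak syndrome in humans. Its level was 108, 110 and 115 CPM in iridophores, against 21.8, 14.9 and 17.4 CPM in the control. Replicate spread in iridophores was small, with a coefficient of variation of 3.04% on 59, 76 and 204 counts, and the groups were far apart. The log2 fold change was 2.60 (standard error 0.23, edgeR adjusted p 2.37e-05). The paralog dtnbp1b, which encodes a second dysbindin, was not analysed here, so the balance of the paralogs could not be measured.

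The cappuccino subunit is encoded by bloc1s4. Iridophore replicates 1, 2 and 3 had 31.1, 29.04 and 29.2 CPM, and control replicates 5.38, 1.79 and 3.08 CPM. The iridophore libraries were close, on 17, 20 and 52 counts, and the control values rest on 18, 3 and 6 counts. The size of the fold thus rests on few reads, fewest in the control. This was a log2 fold change of 2.98 (standard error 0.37, 95% interval 2.14 to 3.81, edgeR adjusted p 0.000229).

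The gene bloc1s3, whose human counterpart is mutated in one form of Hermansky-Pudlak syndrome, changed less. It was at 56.8, 58.1 and 48.4 CPM in iridophores and at 15.6, 14.3 and 10.8 CPM in the control. The groups were apart by more than their spread, and the log2 fold change was 1.98 (standard error 0.26, 95% interval 1.41 to 2.55, edgeR adjusted p 0.000269). In RefSeq's GRCz12tu annotation bloc1s3 overlaps sesn3, a stress-induced regulator of TORC1, and the strand setting of the counting is not stated. It also overlaps LOC101884284 and LOC141377888, which were not analysed here. The row of sesn3 was at 8.37 ± 7.13 CPM in iridophores, against 8.47 ± 4.16 CPM (n = 3 each; log2 fold change 0.07, edgeR adjusted p 0.942).

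The gene bloc1s5 encodes the muted subunit and had the smallest difference and the fewest counts, 70 over the 6 libraries. Its level was 7.33, 11.6 and 15.2 CPM in iridophores, from 4, 8 and 27 counts, and was 5.08, 1.79 and 5.64 CPM in the control. The lowest iridophore library was 1.299 times the highest control library. Its fitted log2 fold change was 1.48 (standard error 0.46, fold interval 1.38 to 5.65, edgeR adjusted p 0.0269). This call was lost under DESeq2 (adjusted p 0.0566) and in 5 of the 6 fits that left out 1 library (edgeR). The adjusted p in edgeR was 0.0681 without iridophore replicate 2, 0.218 without iridophore replicate 3, and 0.0502, 0.111 and 0.0556 without control replicates 1, 2 and 3. It was kept without iridophore replicate 1 (edgeR adjusted p 0.0227), and within replicates 2 and 3 alone, where the log2 fold change was 1.82 (edgeR adjusted p 0.0170).

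**Figure D2:**
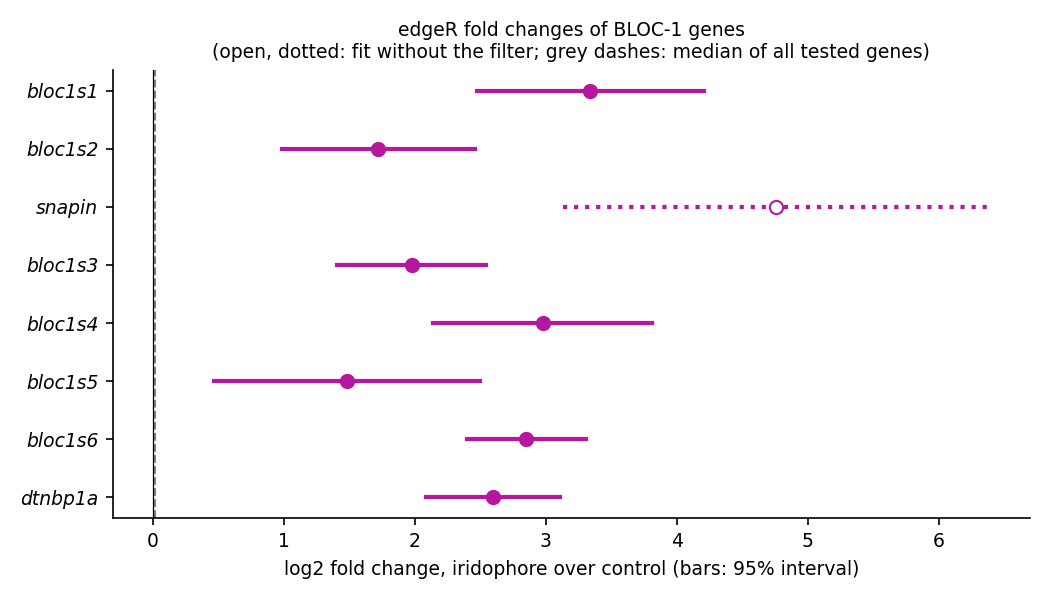
Fitted log2 fold change of iridophore over control for each BLOC-1 gene with its 95% interval (edgeR, 3 libraries per group); the grey dashed line is the median of all tested genes, 0.01. Values run from 1.48 for bloc1s5 to 3.34 for bloc1s1, and the open point is snapin at 4.75 from the fit without the filter on low counts.

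Among the subunits shared with BORC, bloc1s1 had the largest fold of the 7 filtered genes. Its protein was also described in mammals as GCN5L1, a factor in protein acetylation in mitochondria. It was at 38.5, 42.1 and 43.9 CPM in iridophores and at 4.79, 1.19 and 5.64 CPM in the control. The iridophore libraries varied by 6.64% and the control libraries by 61.0% (coefficient of variation), on 21, 29 and 78 iridophore counts and 16, 2 and 11 control counts. On the log2 scale the change was 3.34 (standard error 0.39, 95% interval 2.47 to 4.21, edgeR adjusted p 0.000146).

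The gene bloc1s2, the other shared subunit that passed the filter, had 36.6, 63.9 and 53.4 CPM in iridophores, against 18.2, 8.93 and 19.0 CPM in the control. The groups did not overlap, but the lowest iridophore library, replicate 1, was only 1.93 times the highest control library. The log2 fold change was 1.72 (standard error 0.33, 95% interval 0.98 to 2.46, edgeR adjusted p 0.00266). The intervals of bloc1s1 and bloc1s2 just miss each other, and their log2 fold changes differ by 1.62. That difference was not tested in the fit.

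Snapin, first described as a partner of the synaptic SNARE SNAP-25, behaved unlike the rest in 1 library. Its gene had 1, 35 and 80 counts in iridophore replicates 1, 2 and 3, or 1.83, 50.8 and 45.0 CPM, and 4, 3 and 1 counts in control replicates 1, 2 and 3, or 1.196, 1.79 and 0.513 CPM. Iridophore replicates 2 and 3 were therefore high, while iridophore replicate 1 stood with the control. The single count has an exact Poisson 95% interval of 0.0253 to 5.57 counts, which covers counting error only. At the mean of replicates 2 and 3, 47.9 CPM, that library would have given 26.2 counts. Without the filter the log2 fold change was 4.75 (standard error 0.75, edgeR adjusted p 0.000432), and within replicates 2 and 3 alone it was 5.30 (standard error 0.49, edgeR adjusted p 2.77e-06). Both replicate 1 libraries also share the other ending of the library name, and the part of that in the low value was not tested.

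CPM did not overlap between the groups for the 7 filtered genes, against 27.0% of tested genes that lay apart in the same direction. Since bloc1s1, bloc1s4 and bloc1s5 passed the filter through the iridophore libraries alone, this count is a description and not support. Summed over the 8 genes, the level was 705, 906 and 787 CPM in iridophore replicates 1, 2 and 3 and 135, 110 and 129 CPM in the control, a ratio of group means of 6.43. The largest part of that sum is bloc1s6, with 58.5% ± 2.54 of the BLOC-1 counts in iridophores and 52.5% ± 6.37 in the control. Without it, the sums were 332 ± 45.5 and 59.6 ± 13.9 CPM (n = 3 each), a ratio of 5.57. The 3 genes shared with BORC, snapin among them, had a ratio of 6.14 and the 5 others, bloc1s6 among them, one of 6.49. The lowest iridophore sum was 3.06 times the highest control sum for the shared genes and 5.68 times for the others. A sum over genes carries no test here. The parts of the sum are shares of counts, and levels were not tested between genes.

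The make-up of the summed BLOC-1 counts, which does not depend on how libraries are scaled, was compared without reaching a test threshold. The share of bloc1s1 was 5.22% ± 0.503 in iridophores and 3.01% ± 1.71 in the control, and that of bloc1s2 was 6.34% ± 1.004 and 12.1% ± 3.51 (mean ± SD, n = 3 each). The share of bloc1s3 was 6.87% ± 1.03 in iridophores and 10.98% ± 2.39 in the control. The groups did not overlap for these 3 genes and overlapped for bloc1s4, bloc1s5, bloc1s6, dtnbp1a and snapin. The gaps were narrow. For bloc1s1 the lowest iridophore share was 4.65% and the highest control share 4.38%. For bloc1s2 and bloc1s3 the highest iridophore shares were 7.05% and 8.05%, and the lowest control shares 8.15% and 8.37%. No like count over other genes was made, so the 3 genes are a description. The share of dtnbp1a was close in both groups, at 14.03% ± 1.64 and 14.4% ± 1.51. With 3 libraries against 3, an exact permutation test cannot give a two-sided p under 0.1, so none of these shares could pass a threshold of 0.05. The control shares rest on 184 to 451 BLOC-1 counts per library and the iridophore shares on 385 to 1400.

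**Figure D3:**
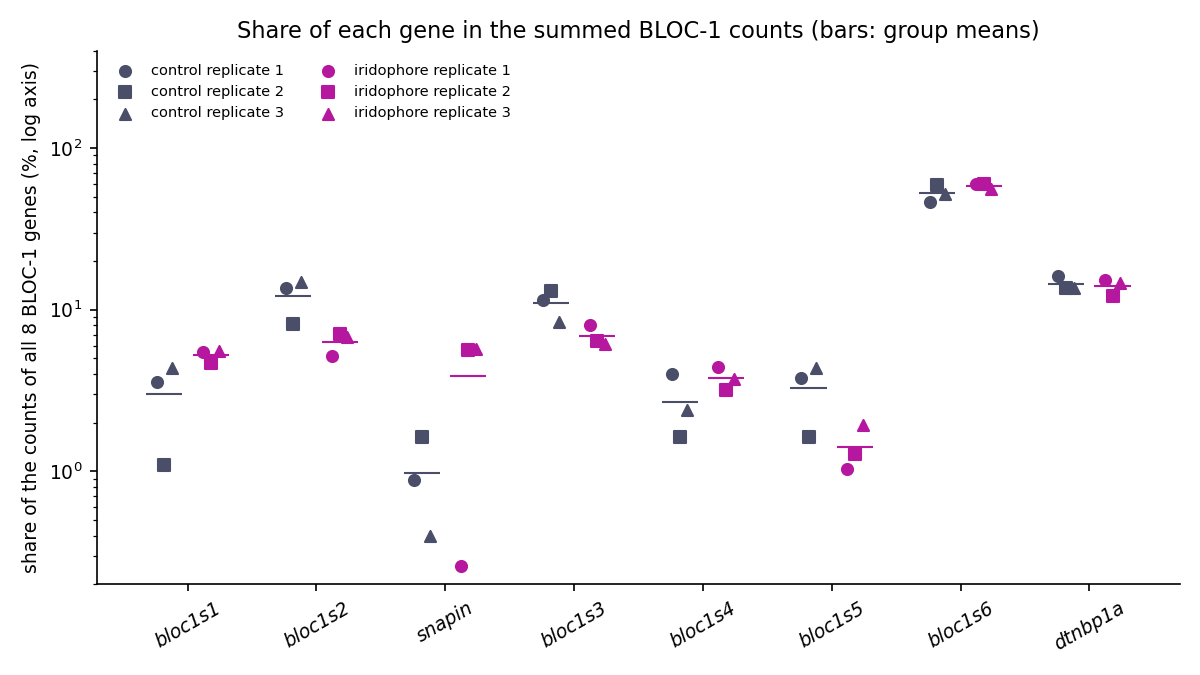
Counts of each BLOC-1 gene as a percentage of the counts of all 8 genes in the same library (log axis); shapes are replicates, colours are groups and bars are group means. The share of bloc1s1 is higher, and those of bloc1s2 and bloc1s3 are lower, in all 3 iridophore libraries than in any control library, by narrow gaps.

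Of the 16 other ways of fitting or subsetting the data, every one in which the gene was tested kept the call for bloc1s1, bloc1s2, bloc1s3, bloc1s4, bloc1s6 and dtnbp1a. Their log2 fold changes stayed within 2.89 to 3.55, 1.361 to 2.00, 1.79 to 2.06, 2.63 to 3.50, 2.70 to 2.89 and 2.38 to 2.77 in that order. For snapin, 6 fits gave a value, from 4.48 to 5.30.

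**Figure D4:**
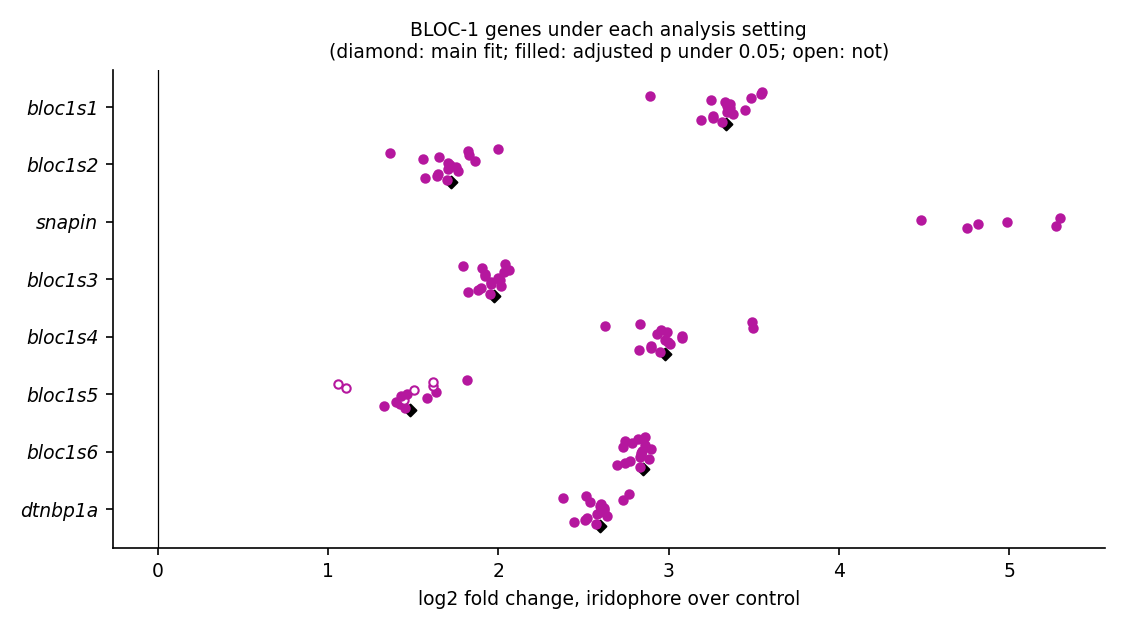
Log2 fold change of each BLOC-1 gene under each analysis setting in which it was tested; black diamonds are the main fit, filled points have an adjusted p under 0.05 and open points do not. All points lie above 0, and open points occur for bloc1s5 alone.

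Neighbouring genes were compared because 3′ reads of adjacent genes can be assigned to the wrong one. Neighbours were read from the GRCz12tu annotation of RefSeq, which is not the build behind the counts. Beside bloc1s1, rdh5, which in mammals encodes a retinol dehydrogenase of the retinal pigment epithelium, was higher in iridophores, at 98.99 ± 44.4 against 14.9 ± 8.88 CPM (n = 3 each; log2 fold change 2.82, standard error 0.52, edgeR adjusted p 0.00201). Its counts of 27, 93 and 200 in iridophore replicates 1, 2 and 3 varied more than the 21, 29 and 78 of bloc1s1. Whether reads passed between these 2 genes was not tested.

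Beside bloc1s6, the zinc transporter gene slc30a4 was not called (log2 fold change 0.53, standard error 0.25, edgeR adjusted p 0.114; 0.0444 without iridophore replicate 2). The gene on its other side, mibp2, was called at a log2 fold change of 0.61 (edgeR adjusted p 0.0238), a call lost in 5 of the alternatives. The neighbour of dtnbp1a, mylipb, was not called (0.61, edgeR adjusted p 0.0803), although it was without iridophore replicate 1 (0.74, edgeR adjusted p 0.0276) and within replicates 2 and 3 alone (0.80, edgeR adjusted p 0.0234). The neighbours chtopa of snapin and txndc5 of bloc1s5 were not called (log2 fold changes -0.29 and -0.51, edgeR adjusted p 0.348 and 0.179). Beside bloc1s4, asns, the asparagine synthetase gene, was lower at -0.94 (edgeR adjusted p 0.0437), a call lost in 9 of the 16 alternatives, replicates 2 and 3 alone among them (edgeR adjusted p 0.0641), and stood at -1.54 without iridophore replicate 3. The other neighbour of bloc1s5, eef1e1, was not called, at -0.94 (edgeR adjusted p 0.0562), but was called lower in 9 of the 16 alternatives, among them replicates 2 and 3 alone (-1.16, edgeR adjusted p 0.0297) and all libraries but iridophore replicate 1 (-1.21, edgeR adjusted p 0.0217). None of these 7 neighbours had a log2 fold change as large as the gene it adjoins.

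The complexes that work with BLOC-1 were compared by the same fit, in which 22.1% of all tested genes were called higher. Of the genes named next, kxd1, hps3, hps4, rab38c, ap3m2 and pi4k2a did not pass the filter in all 3 control libraries and were tested through the iridophore libraries, where they are high, so counts of called genes in these small complexes are descriptions and not support. The BORC subunits outside BLOC-1 were mostly too weakly counted: kxd1 was higher at a log2 fold change of 2.53 (standard error 0.40, edgeR adjusted p 0.000910), and borcs5 and borcs6 were not tested. The borcs6 row, listed under its older symbol si:dkey-72l14.4, had 0, 3 and 4 counts in iridophores and 2, 15 and 14 in the control. Iridophore counts of borcs5 were 0, 0 and 13, all from replicate 3. Of the paralogs of Arl8, the GTPase that BORC recruits, arl8ba was higher by 3.17 on the log2 scale (standard error 0.27, edgeR adjusted p 1.81e-05). The paralog arl8a was not called, at 1.36 (standard error 0.52, edgeR adjusted p 0.0602), and arl8bb was not tested. Without iridophore replicate 1, arl8a was called at 1.74 (edgeR adjusted p 0.00187), and within replicates 2 and 3 alone at 1.65 (edgeR adjusted p 0.00143). Without iridophore replicate 3 it stood at 0.46 and was not called (edgeR adjusted p 0.547).

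In BLOC-2, which acts after BLOC-1 in targeting carriers to melanosomes in mammals, hps5 rose by 2.85 (standard error 0.26, edgeR adjusted p 3.13e-05) and hps3 by 2.15 (standard error 0.40, edgeR adjusted p 0.00232) on the log2 scale, 2 of 2 tested. Of BLOC-3, the exchange factor for Rab32 and Rab38, hps4 rose by 3.74 (standard error 0.32, edgeR adjusted p 1.82e-05). Its partner hps1 was not tested and had 9, 4 and 15 counts in iridophores against 3, 3 and 2 in the control. The mean iridophore level of hps1 was 7.28 times a floor of 3 counts per control library, which is not a confidence bound. Also higher were rab32a, at 3.60 (standard error 0.24, edgeR adjusted p 4.81e-06), and rab38c, at 22.4 times the same floor. With hps4, 3 of 3 tested genes of BLOC-3 and its Rab targets were called higher. A row under the symbol rab38 matched no listed gene and is not in that count.

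The adaptor AP-3, which sorts cargo from endosomes by a route partly separate from that of BLOC-1, was less uniform. Of 3 tested genes from the list, ap3m2 was higher by 2.62 (standard error 0.46, edgeR adjusted p 0.00161; 3.27 within replicates 2 and 3 alone) and ap3s1 by 0.94 (standard error 0.21, edgeR adjusted p 0.00675). The call of ap3s1 was lost without control replicate 3 (edgeR adjusted p 0.0560). The other μ3 gene, ap3m1, was not called, at -0.48 (standard error 0.33, edgeR adjusted p 0.280). The row under the symbol ap3b1 matched no listed gene and is not among these 3. That row was higher by 3.103 (standard error 0.317, edgeR adjusted p 6.28e-05), and its call was kept in all 16 alternatives. For a wider list of recycling partners the count was 4 higher and 1 lower of 14 tested, with a median log2 fold change of 0.37. That is 28.6% higher, near the 22.1% of all tested genes. Of the 14, 11 also passed the filter in all 3 control libraries, and stx12, anxa2a and arl8ba were the ones called higher among them. Over all tested genes that did so, 14.1% were called higher.

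Within that wider list, pi4k2a, whose product makes phosphatidylinositol 4-phosphate on endosomes and binds BLOC-1 in mammals, rose by 2.89 (standard error 0.30, edgeR adjusted p 7e-05), and anxa2a, an annexin of endosomal membranes, by 2.53 (standard error 0.24, edgeR adjusted p 3.7e-05). The SNARE gene stx12, whose product is the syntaxin bound by pallidin, was called at 0.77 (standard error 0.25, edgeR adjusted p 0.0328). That call was lost in 9 of the 16 alternatives, with edgeR adjusted p up to 0.149 without iridophore replicate 3. The listed gene stx12l was not tested, and had 1, 9 and 16 counts in iridophores and 0, 0 and 0 in the control. The recycling Rab gene rab11al was lower by -1.44 (standard error 0.44, edgeR adjusted p 0.0268), and lost its call without iridophore replicates 2 or 3 or control replicate 2 (edgeR adjusted p 0.0853, 0.101 and 0.0736). Its relatives rab11a, rab11ba and rab11bb were not called, at 0.36, 0.02 and 0.37.

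**Figure D5:**
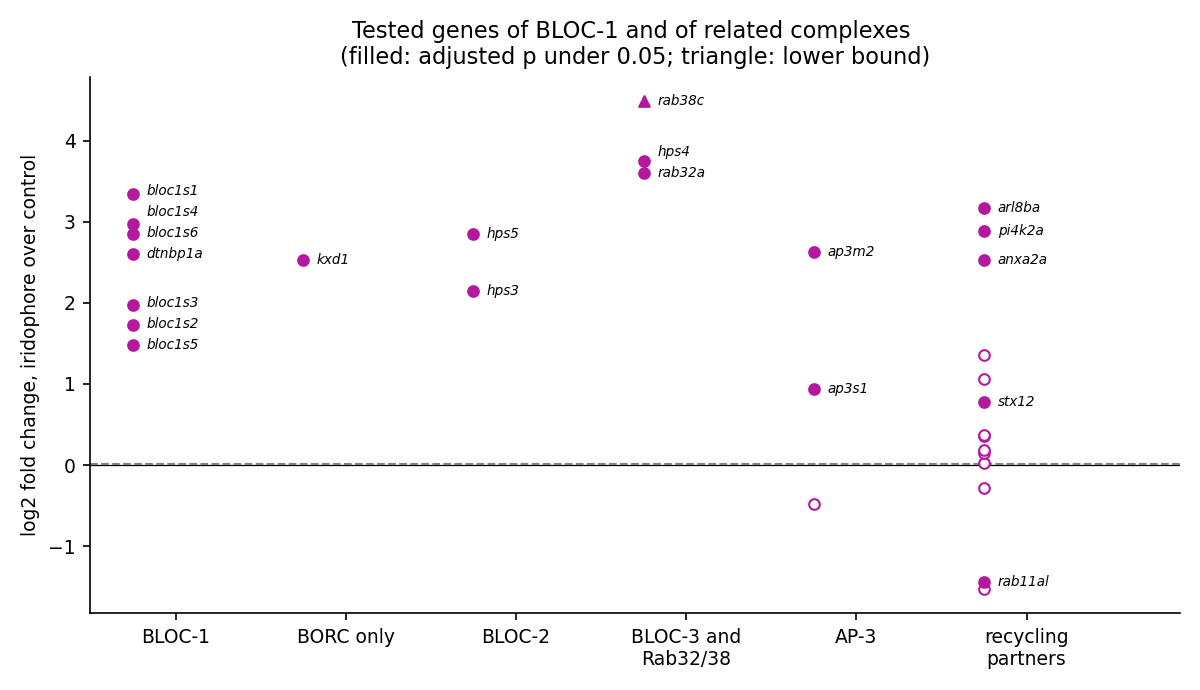
Log2 fold change of the tested genes of BLOC-1 and of 5 comparison lists; filled points have an edgeR adjusted p under 0.05, open points do not, and the triangle is rab38c set against the count floor, not a confidence bound. The 7 BLOC-1 genes lie between 1.48 and 3.34, and the recycling partners spread on both sides of 0.

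By likeness of profile, the 5 genes closest to the mean log2 CPM of the 7 tested BLOC-1 genes over the 6 libraries were ppt1, ap3b1, atp6v1h, fjx1 and lin7c, with Pearson r of 0.997 to 0.998. The first of them, ppt1, encodes a lysosomal thioesterase and was at 78.7 ± 7.90 CPM in iridophores, against 27.2 ± 4.02 CPM (n = 3 each). The row ap3b1, the symbol of the β3A subunit of AP-3, was at 93.9 ± 20.7 and 10.6 ± 4.04 CPM, and atp6v1h, a subunit of the V-ATPase proton pump, at 194 ± 26.4 and 58.7 ± 12.3 CPM. With 2 groups of 3 libraries, many genes that separate the groups score high, and 557 genes reached 0.95 or more and 50 reached 0.99 or more.

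Markers of other cells that use BLOC-1 were set beside these results, from a fit that called 22.1% of all tested genes higher and 17.8% lower. Of the melanophore list, 5 of 9 genes were measured, and their summed level overlapped between the groups, at 103 to 202 CPM in iridophores and 71.8 to 310 CPM in the control. The overlap came from control replicate 1, at 71.8 CPM, and control replicates 2 and 3 lay above every iridophore library. One of them, dct, was called higher (log2 fold change 1.37, edgeR adjusted p 0.0359, lost on leaving out any of the libraries but iridophore replicate 1), and 0 were lower. The melanosome gene tyrp1b was at -1.37 (edgeR adjusted p 0.0562), and was called lower in 8 of the 16 alternatives, among them DESeq2 (adjusted p 0.0240) and replicates 2 and 3 alone (-1.59, edgeR adjusted p 0.000286) and all libraries but control replicate 1 (-1.83, edgeR adjusted p 0.00212). The retinal pigment epithelium list overlapped as well, at 167 to 293 and 103 to 276 CPM over 4 of its 7 genes, with rgra called higher (1.76, edgeR adjusted p 0.00884). Its other measured genes did not move in a single direction. Neither rpe65a, at -1.40 (edgeR adjusted p 0.0574), nor bhlhe40, at 0.77 (edgeR adjusted p 0.0950), was called, and rlbp1b was not tested. For rpe65a and bhlhe40 the alternatives, replicates 2 and 3 alone among them, were not examined. Neurons, which use BLOC-1 for synaptic vesicle proteins, gave 84.9 to 91.5 and 55.3 to 136 CPM over all 7 genes, with 0 of 5 tested genes called. Here too control replicate 1 was the lowest library, and control replicates 2 and 3 lay above every iridophore library.

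Other lists moved with the groups, and their calls stand beside the same 22.1% higher and 17.8% lower of all tested genes. The summed level of 3 of 7 macrophage genes was 20.2 to 58.1 CPM in iridophores and 1.496 to 6.67 CPM in the control. Of these, coro1a was called higher and mfap4 and marco were not tested, and mpeg1.1 was not analysed. Xanthophore genes, 5 of 7, summed to 260.1 to 460 and 118 to 205 CPM, with 2 called higher and 1 lower. Skeletal muscle genes, 4 of 6 and all called higher, summed to 7859 to 9705 and 3560 to 4296 CPM. Erythrocyte genes, 5 of 6, summed to 642 to 739 and 1318 to 1832 CPM, with 4 of 4 tested called lower. Of the markers of other cells called higher, dct, rgra, coro1a and slc2a15b did not pass the filter in all 3 control libraries. They were tested through the iridophore libraries, where they are high, so these calls are a description and not support. No listed marker with a row was at 0 in every iridophore library, and the part of these cells in the BLOC-1 values was not tested.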

How the data were processed

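The authors deposited a table of raw, whole-number read counts without normalization, with 11016 gene symbols as rows and the 6 libraries as columns, per the file headers and values. Per the submitters' processing notes, cutadapt, STAR 2.5.2b, HTSeq, DESeq2 1.36.1 and the danRer11 build were used; roles, annotation, strand setting, molecular identifiers and gene filter are not given in the sources used here. Groups came from sample titles, and 0 columns lacked a sample.

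Counts were fitted with edgeR 4.0.16 in R 4.3.3 (filterByExpr, minimum count 10, minimum total 15; TMM; quasi-likelihood F test, group as the only term), which kept 6849 genes and 98.7% of counts. P-values were Benjamini-Hochberg adjusted over all genes tested. A standard error is the absolute log2 fold change over the square root of F; intervals are at 95%. A floor (3 counts) is a fixed level and not a confidence bound, and Poisson intervals cover counting error only. Alternatives used DESeq2 1.42.0, limma-voom 3.58.1, other scalings and filters, a replicate block, the library name ending, and subsets of libraries. The script was tested on simulated data.

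The BLOC-1 symbols and lists were chosen with earlier results of these data known. The rule named all BLOC-1 symbols, neighbours, the 5 most alike genes and called genes of the comparison lists, with values for the 3 largest changes in each. Values of ap3m1, arl8a, stx12, stx12l, the rab11 genes and single cell type markers were added after they were seen. Neighbours and older symbols came from RefSeq GRCz12tu. The planned share of dtnbp1a among dysbindin counts was not computed.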

Additional observations from a re-analysis of the deposited data

How the results depend on the processing

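The count of BLOC-1 genes called higher was 7 in the main fit and 6 to 8 under the 16 alternatives, and 6 to 8 when 1 library was left out; the count called lower was 0 throughout. Their median log2 fold change ranged from 2.38 to 2.77 and the ratio of the summed levels from 5.62 to 6.98. Only bloc1s5 lost its call, in 6 of 15 alternatives that tested it, and the cause was not tested. Upper-quartile factors moved the median log2 fold change of all genes by -0.15, and the BLOC-1 median under them was 2.45. Across the table, higher calls ranged from 1221 to 1793 and lower calls from 860 to 1514, against 1513 and 1217. Genes of the comparison lists called lower numbered 1 in the main fit, 2 with upper-quartile factors, 2 with limma-voom, and 0 to 1 when 1 library was left out; higher calls numbered 10 to 15, against 12. The labels do not pair the libraries, so the numbers were not taken as pairs. Same-numbered libraries deviated together with correlations of 0.32, 0.07 and 0.17 for replicates 1, 2 and 3. Replicate 1 of either group correlated at -0.15 to -0.24 with replicates 2 and 3 of the other, and what the replicate 1 libraries share was not tested. Iridophore replicate 2 correlated best with control replicate 3 (0.12). With the replicate block, 7 BLOC-1 genes were higher and 0 lower, and 1584 and 1387 genes were called across the table; arl8a, eef1e1 and tyrp1b gained a call with it (edgeR adjusted p 0.0484, 0.0433 and 0.000607). The dysbindin share was not run. The control values of bloc1s1, bloc1s4, bloc1s5 and snapin rest on 29, 27, 31 and 8 counts over 3 libraries.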

Other observations

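The snapin value in iridophore replicate 1 stood apart among genes with high levels in iridophore replicates 2 and 3. Of 1887 genes at 40 CPM or more in both iridophore replicates 2 and 3, snapin was the 1 gene with 3 counts or fewer in iridophore replicate 1. The level of 40 CPM was chosen after the snapin values were seen, and genes below it were not compared.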
